A study of Mus musculus with 4 samples.

Results

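The genes described here are co-inhibitory receptors of T cells, a ligand of such a receptor, and the transcription factors Tox and Tox2. They were Tigit, Lag3, Ctla4, Pdcd1, Cd200, Tox, Tox2, Havcr2 and Cd160, 9 genes chosen by symbol with their values in this comparison already known, and a gene was used where its row in the authors' deposited table had the status OK. Of these, 7 were found among 7252 such rows, and Havcr2 and Cd160 had no row among those analysed here. The values are therefore a description of chosen genes and are no independent evidence that co-inhibitory genes differ.

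The cells were effector T cells sorted by CD5, a scavenger-type receptor on the T cell surface that is often read as a measure of self-reactivity. CD5 high effector T cells had 2 libraries and CD5 low effector T cells had 2 libraries, all from NOD mice, a strain that develops autoimmune diabetes, with the genotype NOD.Foxp3-GFP and an age of 6 to 9 weeks. All groups carry the Foxp3-GFP reporter, which marks regulatory T cells, and the labels do not say whether GFP was used to leave such cells out. The design text places the libraries in islets, whereas the tissue label names pancreatic islets together with spleen, and the number of animals behind each library was not given. Each group has 1 combined value per gene in FPKM, fragments per kilobase of transcript scaled to the mapped fragments, so no SD can be given, the depth is unknown, and whether the libraries of the groups overlap cannot be seen.

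Co-inhibitory receptors dampen T cell activation. CTLA-4 competes with CD28 for CD80 and CD86, PD-1 recruits phosphatases to the T cell receptor complex, TIGIT competes with the activating receptor CD226 for the ligand CD155, and LAG-3 binds MHC class II. CD200 acts the other way round, as a surface ligand that signals through an inhibitory receptor on other cells. Tox and Tox2 are nuclear proteins with an HMG box that are known from exhausted T cells, T cells in long-lasting contact with antigen, and Tox2 also from T follicular helper cells.

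All 7 genes had a higher value in CD5 high cells than in CD5 low cells, as did 49.1% of all rows, and 4 of them passed the authors' test at q under 0.05, namely Tigit, Lag3, Ctla4 and Cd200. Over all 7252 rows 0.758% passed that test in either direction and 0.538% passed it as higher in CD5 high. The same 4 genes had a q under 0.10, against 1.28% of all rows, and all 7 had an unadjusted p under 0.05, against 5.58% of all rows that were higher in CD5 high at that p. Since the genes were chosen with these values known, nothing is read from the difference between those shares. The median log2 fold change, CD5 high over CD5 low, was 1.18 for the 7 genes and -0.01 for all rows with a finite fold. Their summed level was 801 FPKM in CD5 high and 370.0 FPKM in CD5 low. The group values come from bulk libraries, so more cells that carry a transcript and more of it per cell cannot be told apart.

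**Figure D1:**
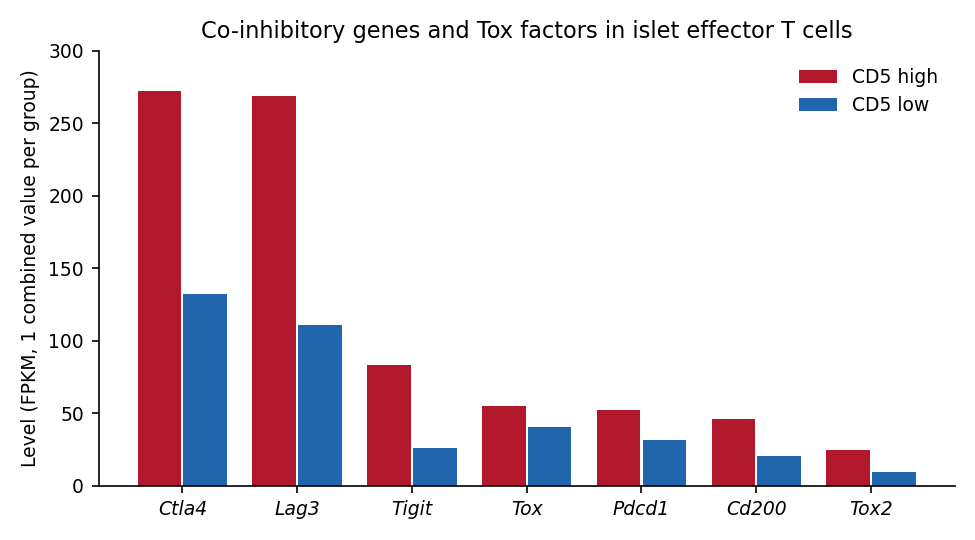
Level of each gene in FPKM (linear axis from 0), with the CD5 high bar left of the CD5 low bar; each bar is the authors' 1 combined value for 2 libraries, so there are no error bars. Ctla4 and Lag3 are the tallest pairs, at 272 and 269 FPKM in CD5 high, and every CD5 high bar is taller than its CD5 low bar.

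Among the receptors, Ctla4 had the highest level in each group. Ctla4 lies on chromosome 1 at 60909025 to 60915830 (mm10, plus strand) and is expressed at a high level by regulatory T cells and at a lower one by activated conventional T cells. Its values in the authors' deposited table were 272 FPKM in CD5 high and 132 FPKM in CD5 low, a 2.06-fold difference (q = 0.0110). In size of difference it was second to Lag3, with 140.3 FPKM more in CD5 high for Ctla4 and 158 FPKM more for Lag3.

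Lag3, a relative of CD4 that binds MHC class II, lies on chromosome 6 at 124904359 to 124911705 (minus strand). The authors' deposited table gives 269 FPKM in CD5 high and 111 FPKM in CD5 low for Lag3, a 2.43-fold difference (q = 0.0110). Lag3 was thus nearly level with Ctla4 in CD5 high, at a Lag3 to Ctla4 ratio of 0.988, against 0.838 in CD5 low. Lag3 also had the highest test statistic of the 7 genes, 3.64, although its fold was below those of Tigit and Tox2. Against the transcript of CD4 itself, the Lag3 to Cd4 ratio of FPKM values was 1.11 in CD5 high and 0.446 in CD5 low.

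Tigit had the largest fold of the group. It lies on chromosome 16 at 43648861 to 43664184 (minus strand). In the authors' deposited table Tigit had 83.0 FPKM in CD5 high and 26.0 FPKM in CD5 low, a 3.19-fold difference (q = 0.0110). It was the third most abundant of the 7 in CD5 high and the fifth in CD5 low, where Tox and Pdcd1 had higher values. Among all rows ordered by level it stood at place 942 in CD5 high and at place 2906 in CD5 low, and its log2 fold change of 1.67 was the 52nd highest of 7237 finite ones.

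Pdcd1, which encodes PD-1, had 52.5 FPKM in CD5 high and 31.6 FPKM in CD5 low in the authors' deposited table, a log2 fold change of 0.73 that did not pass the test (q = 0.210, unadjusted p = 0.0057). It lies on chromosome 1 at 94038305 to 94052553 (minus strand). Its fold was the second smallest of the 7, above that of Tox, so the Tigit to Pdcd1 ratio was 1.58 in CD5 high and 0.824 in CD5 low. The Ctla4 to Pdcd1 ratio differed less, at 5.19 in CD5 high and 4.18 in CD5 low. That Pdcd1 missed the threshold does not show that PD-1 transcripts were alike in the groups, and whether its fold differs from that of Tigit was not tested.

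Cd200, the gene of the ligand, lies on chromosome 16 at 45382135 to 45409053 (minus strand). By the authors' deposited table it had 45.9 FPKM in CD5 high and 20.2 FPKM in CD5 low, a 2.27-fold difference (q = 0.0186). The gene of its receptor, Cd200r1, was also listed, at 16.5 FPKM in CD5 high and 18.2 FPKM in CD5 low (log2 fold change -0.14, q = 0.927). Cd200 therefore stood above Cd200r1 by a ratio of 2.78 in CD5 high and 1.11 in CD5 low.

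Of the Tox factors, Tox was the more abundant and Tox2 had the larger fold. In the authors' deposited table Tox, on chromosome 4 at 6687386 to 6990723 (minus strand), had 54.7 FPKM in CD5 high and 40.4 FPKM in CD5 low. Its log2 fold change of 0.44 did not pass the test (the authors' q = 0.484 over all genes). Tox2, on chromosome 2 at 163225454 to 163323102 (plus strand), had 24.3 FPKM in CD5 high and 9.23 FPKM in CD5 low. Its log2 fold change of 1.40 was the second largest of the 7 but did not pass the test either (the authors' q = 0.132 over all genes). Tox2 was the least abundant of the 7 in each group, at a Tox2 to Tox ratio of 0.445 in CD5 high and 0.229 in CD5 low. The family member Tox4, which is expressed in many tissues, had 15.0 FPKM in CD5 high and 14.2 FPKM in CD5 low (log2 fold change 0.07, q = 0.969), and Tox3 had no row among those analysed here. In the GENCODE annotation exons of Tox share bases with those of Gm11802 on the opposite strand. The library kit does not mark strand, so reads of these genes that lie within the shared bases cannot be told apart.

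In order of q, the gene just inside the threshold was Cd200 at 0.0186 and the one just outside was Tox2 at 0.132. The order of the levels in CD5 high was Ctla4, Lag3, Tigit, Tox, Pdcd1, Cd200 and Tox2, and in CD5 low it was Ctla4, Lag3, Tox, Pdcd1, Tigit, Cd200 and Tox2. With 1 value per group, no pair of neighbours in either order can be said to differ beyond the spread between libraries.

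**Figure D2:**
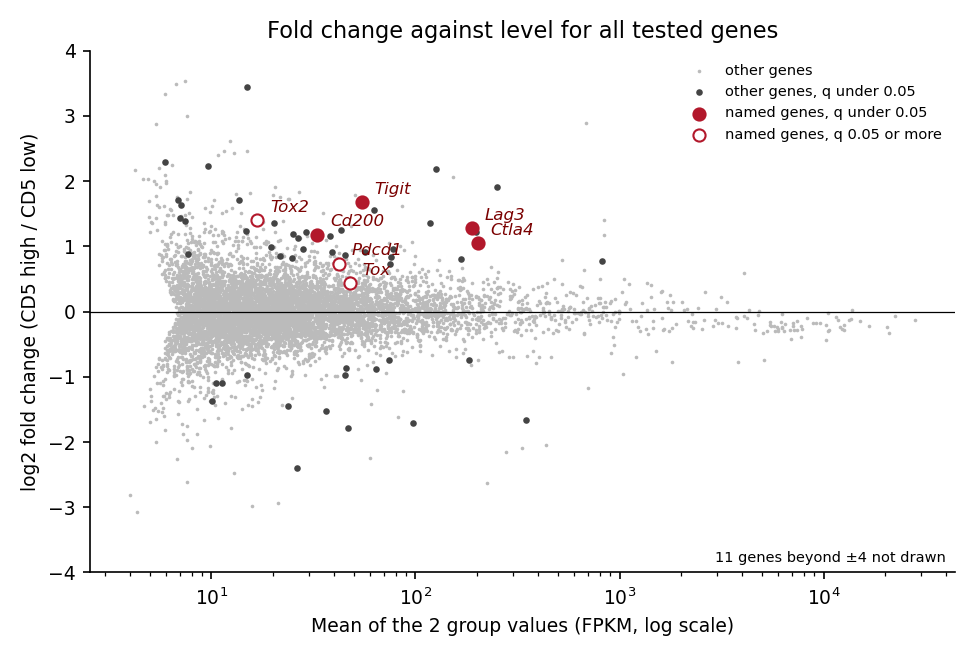
Each point is a tested gene with a finite fold. It is placed by the mean of its CD5 high and CD5 low values (FPKM, log axis) and by its log2 fold change, CD5 high over CD5 low. Filled red points are the named genes with q under 0.05, open red points the others, and dark points further genes with q under 0.05. Not drawn are 11 genes beyond 4 on the log2 axis and 15 rows without a finite fold, Fcer1g (q = 0.0110) among them. Tigit, Lag3, Ctla4 and Cd200 lie above a log2 fold change of 1, as does Tox2 at a lower level, whereas Pdcd1 (0.73) and Tox (0.44) lie closer to the bulk of the genes.

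The bases just before the transcription start are shown for the genes that passed the test and have a window in the RefSeq-derived promoter table, and for Pdcd1 as the receptor that did not pass. The table matched 7 of the 9 genes, and Lag3 and Tox have no entry. Each sequence is the 250 bases before the start, 5′ to 3′ on the gene's strand, from RefSeq on GRCm38.p6 (the build also called mm10). The windows are chr16:43664185-43664434 (minus strand) for Tigit, chr1:60908775-60909024 (plus strand) for Ctla4, chr16:45409054-45409303 (minus strand) for Cd200 and chr1:94052554-94052803 (minus strand) for Pdcd1. Capitals mark matches to 5 motifs, searched on each strand. The first, GGAAA, is the core bound by NFAT, a factor activated by calcium signals from the T cell receptor, and it can overlap sites of other factors such as Ets proteins. For AP-1, the usual partner of NFAT on such genes, the letters searched were TGANTCA. Those for the Runx factors, which act throughout T cell development, were TGTGGT. The orphan receptors of the Nr4a group, induced by T cell receptor signals, were searched as AAGGTCA. Finally the box that positions the start of transcription was searched as TATAAA.
Tigit: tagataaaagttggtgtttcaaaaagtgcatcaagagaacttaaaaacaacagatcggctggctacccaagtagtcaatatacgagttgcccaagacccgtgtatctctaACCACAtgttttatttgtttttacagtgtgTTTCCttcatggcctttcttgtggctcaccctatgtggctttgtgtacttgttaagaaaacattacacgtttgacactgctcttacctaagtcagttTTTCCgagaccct
Ctla4: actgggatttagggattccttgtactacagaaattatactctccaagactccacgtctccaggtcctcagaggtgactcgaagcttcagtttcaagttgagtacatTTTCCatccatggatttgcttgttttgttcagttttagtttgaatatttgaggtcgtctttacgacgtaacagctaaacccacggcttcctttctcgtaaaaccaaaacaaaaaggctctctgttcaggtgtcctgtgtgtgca
Cd200: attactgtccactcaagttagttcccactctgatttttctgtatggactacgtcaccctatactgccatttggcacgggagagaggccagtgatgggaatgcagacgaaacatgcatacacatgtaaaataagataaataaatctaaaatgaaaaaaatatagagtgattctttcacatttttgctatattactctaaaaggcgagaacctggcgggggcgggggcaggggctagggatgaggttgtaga
Pdcd1: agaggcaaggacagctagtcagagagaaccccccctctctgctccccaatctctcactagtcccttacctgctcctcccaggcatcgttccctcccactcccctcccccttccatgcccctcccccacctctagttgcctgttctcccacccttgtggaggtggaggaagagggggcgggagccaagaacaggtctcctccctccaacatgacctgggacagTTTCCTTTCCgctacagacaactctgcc

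The Tigit window held GGAAA at 2 places and TGTGGT at 1, and the Pdcd1 window held GGAAA at 2 places next to each other. The Ctla4 window held GGAAA at 1 place, and the Cd200 window held none of the 5 motifs. Of 6970 windows of genes tested here, 54.6% held GGAAA and 10.8% held TGTGGT, so a match to the first is common. The windows starting at 163225203 and 163225204 on chromosome 2, whose start sites lie at or next to the authors' first base of Tox2, held GGAAA together with the box TATAAA. These windows overlap almost fully and share the same matches. The other windows of Tox2 held none of the 5 motifs. The box was in 6.24% of the windows of tested genes. TGANTCA was in the window of Havcr2 and in 3.96% of those of tested genes, and AAGGTCA was in none of the windows of the 9 genes and in 2.80% of those of tested genes. A match is a description of letters and not a bound site, and the values above do not bear on any factor.

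Receptors that share ligands with these genes, or costimulate, formed a list of 11, all tested. Of these, 2 were higher in CD5 high at q under 0.05, against 0.538% of all rows. A higher value in CD5 high was found for 10 of 11, against 49.1% of all rows, with a median log2 fold change of 0.20. The changed genes in the authors' deposited table were Tnfrsf4, encoding OX40, with 169 FPKM in CD5 high and 65.8 FPKM in CD5 low (q = 0.0110), and Tnfrsf18, encoding GITR, with 213 FPKM in CD5 high and 122 FPKM in CD5 low (q = 0.0462). By the mean of the group values its most abundant genes were Cd2, an adhesion receptor, at 245 FPKM in CD5 high and 213 FPKM in CD5 low (q = 0.773), Tnfrsf18, and Slamf6, an adhesion receptor of the SLAM family, at 140.4 FPKM in CD5 high and 139 FPKM in CD5 low (q = 0.985). None of these values is a test of whether the co-inhibitory genes and their partners differ in fold.

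Tigit was set against other receptors of its ligand, and Ctla4 against other members of the CD28 family. The activating partner Cd226 had 17.4 FPKM in CD5 high and 24.1 FPKM in CD5 low (log2 fold change -0.47, q = 0.614) in the authors' deposited table, which gives a Tigit to Cd226 ratio of 4.77 in CD5 high and 1.08 in CD5 low. Cd96, a further receptor of the same ligand, had 37.9 FPKM in CD5 high and 35.5 FPKM in CD5 low (q = 0.939), for a Tigit to Cd96 ratio of 2.19 in CD5 high and 0.733 in CD5 low. For the CD28 family, Cd28 had 130.1 FPKM in CD5 high and 121 FPKM in CD5 low (q = 0.895), and the Ctla4 to Cd28 ratio was 2.09 in CD5 high and 1.09 in CD5 low. Icos, a costimulatory relative, had 156 FPKM in CD5 high and 100.1 FPKM in CD5 low (log2 fold change 0.64, q = 0.0714), so the Ctla4 to Icos ratio of 1.75 in CD5 high was nearer to the 1.32 in CD5 low. These 4 partner genes were chosen after their values were seen, and FPKM values are per length, so the ratios compare transcripts and not surface proteins.

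**Figure D3:**
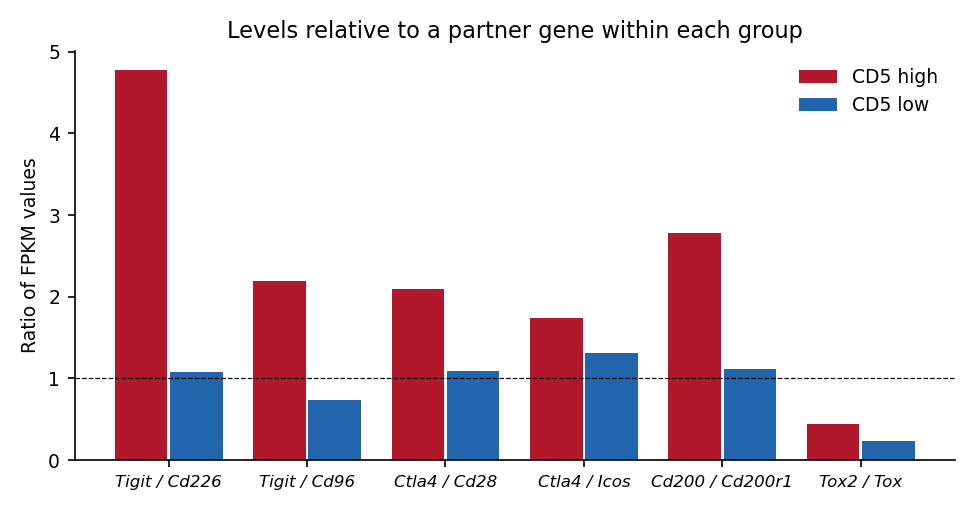
Ratio of the FPKM value of a gene to that of its partner within each group (linear axis from 0, dashed line at 1), with the CD5 high bar left of the CD5 low bar; each ratio comes from 1 combined value per gene and group and has no error. The Tigit to Cd226 pair is farthest apart, at 4.77 in CD5 high and 1.08 in CD5 low, and the Tox2 to Tox pair stays below 1 in each group.

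Ligands of the receptors had values in either direction, and no member passed the test. Of 19 listed symbols, older and newer names of the nectins among them, 7 were tested, with a median log2 fold change of -0.14. A higher value in CD5 high was found for 3, against 49.1% of all rows, and a lower one for 4. At an unadjusted p under 0.05 the count was likewise 0. High levels were found for Hmgb1, a nuclear protein that TIM-3 can bind, at 206.6 FPKM in CD5 high and 206.6 FPKM in CD5 low (q = 0.998), Tnfrsf14, the HVEM ligand of CD160 and BTLA, at 46.9 FPKM in CD5 high and 61.2 FPKM in CD5 low (q = 0.711), and Lgals9, encoding galectin-9, at 43.9 FPKM in CD5 high and 52.9 FPKM in CD5 low (q = 0.773). In the same deposited table, and chosen after its values were seen, Cd274, encoding the PD-1 ligand PD-L1, had 15.2 FPKM in CD5 high and 13.1 FPKM in CD5 low (q = 0.853).

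Other inhibitory receptors held 7 tested genes of 14 listed. Of these, 2 were higher at q under 0.05, Cd5 and Cd6, against 0.538% of all rows. In the authors' deposited table Cd5 had 206 FPKM in CD5 high and 45.4 FPKM in CD5 low (q = 0.0110), in the direction of the sort, which is no finding. Cd6, a related scavenger receptor, had 399 FPKM in CD5 high and 106 FPKM in CD5 low (q = 0.0110). The next most abundant was Btla, a receptor for HVEM, at 35.8 FPKM in CD5 high and 27.6 FPKM in CD5 low (q = 0.606). Chosen after its values were seen, Lair1, a collagen receptor with inhibitory motifs, went the other way, at 3.12 FPKM in CD5 high and 8.24 FPKM in CD5 low (log2 fold change -1.40), and did not pass the test (q = 0.211). Lair1 reached the 6.82 FPKM that every tested gene had in a group only in CD5 low. Ly9, likewise chosen, had 23.3 FPKM in CD5 high and 27.7 FPKM in CD5 low (q = 0.799). The list had 5 higher and 2 lower values in CD5 high, against 49.1% of all rows higher. Over the 7 genes the median log2 fold change was 0.38.

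Among the molecules that carry the inhibitory signal, 14 of 16 listed symbols were tested. Against 0.538% of all rows, 1 was higher in CD5 high at q under 0.05. This was Ptpn11, which encodes the phosphatase SHP-2 that PD-1 recruits, with 58.2 FPKM in CD5 high and 31.9 FPKM in CD5 low (log2 fold change 0.87, q = 0.0110) in the authors' deposited table. The related phosphatase gene Ptpn6, encoding SHP-1 and chosen after its values were seen, had 64.3 FPKM in CD5 high and 67.0 FPKM in CD5 low (log2 fold change -0.06, q = 0.961). The most abundant genes were the kinases Lck, at 458 FPKM in CD5 high and 419 FPKM in CD5 low (q = 0.862), and Fyn, at 125 FPKM in CD5 high and 104 FPKM in CD5 low (q = 0.638), followed by the adaptor Sh2d1a, at 112 FPKM in CD5 high and 84.5 FPKM in CD5 low (q = 0.633). The median log2 fold change was 0.17, with 11 values higher and 3 lower in CD5 high, against 49.1% of all rows higher.

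Genes of receptor traffic and shedding included none of 11 tested at q under 0.05 in the authors' Cuffdiff-style test, and 4 at an unadjusted p under 0.05, 3 of these higher and 1 lower in CD5 high. Over all rows, 10.3% had an unadjusted p under 0.05. The lower one was Trat1, a transmembrane adaptor reported to bring CTLA-4 to the cell surface, with 39.3 FPKM in CD5 high and 90.3 FPKM in CD5 low (log2 fold change -1.20, q = 0.143). Its most abundant companions were Arf1, a GTPase of vesicle formation, at 94.5 FPKM in CD5 high and 86.3 FPKM in CD5 low (q = 0.882), and Ap2m1, a subunit of the clathrin adaptor that takes up CTLA-4, at 73.0 FPKM in CD5 high and 50.6 FPKM in CD5 low (q = 0.360). Chosen after its values were seen, Lrba, which protects CTLA-4 from lysosomal breakdown, had 18.8 FPKM in CD5 high and 14.1 FPKM in CD5 low (q = 0.496). The median log2 fold change was 0.13.

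Transcription factors associated with exhaustion lay in either direction. Of 25 listed, 23 were tested, Tox and Tox2 among them, with a median log2 fold change of 0.16. Against 0.538% of all rows, 1 was higher at q under 0.05. This was Ikzf2, encoding Helios, with 36.3 FPKM in CD5 high and 16.6 FPKM in CD5 low (q = 0.0110) in the authors' deposited table. The most abundant were Lef1, a factor of naive and memory T cells, at 298 FPKM in CD5 high and 455 FPKM in CD5 low (q = 0.0975), Id2, an inhibitor of E proteins, at 279 FPKM in CD5 high and 285 FPKM in CD5 low (q = 0.977), and Maf, a factor of interleukin-10-producing and follicular helper T cells, at 177 FPKM in CD5 high and 115 FPKM in CD5 low (q = 0.0952). Without Tox and Tox2, 14 of the other 21 genes had a higher and 7 a lower value in CD5 high, against 49.1% of all rows higher. The median of these 21 was 0.15.

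**Figure D4:**
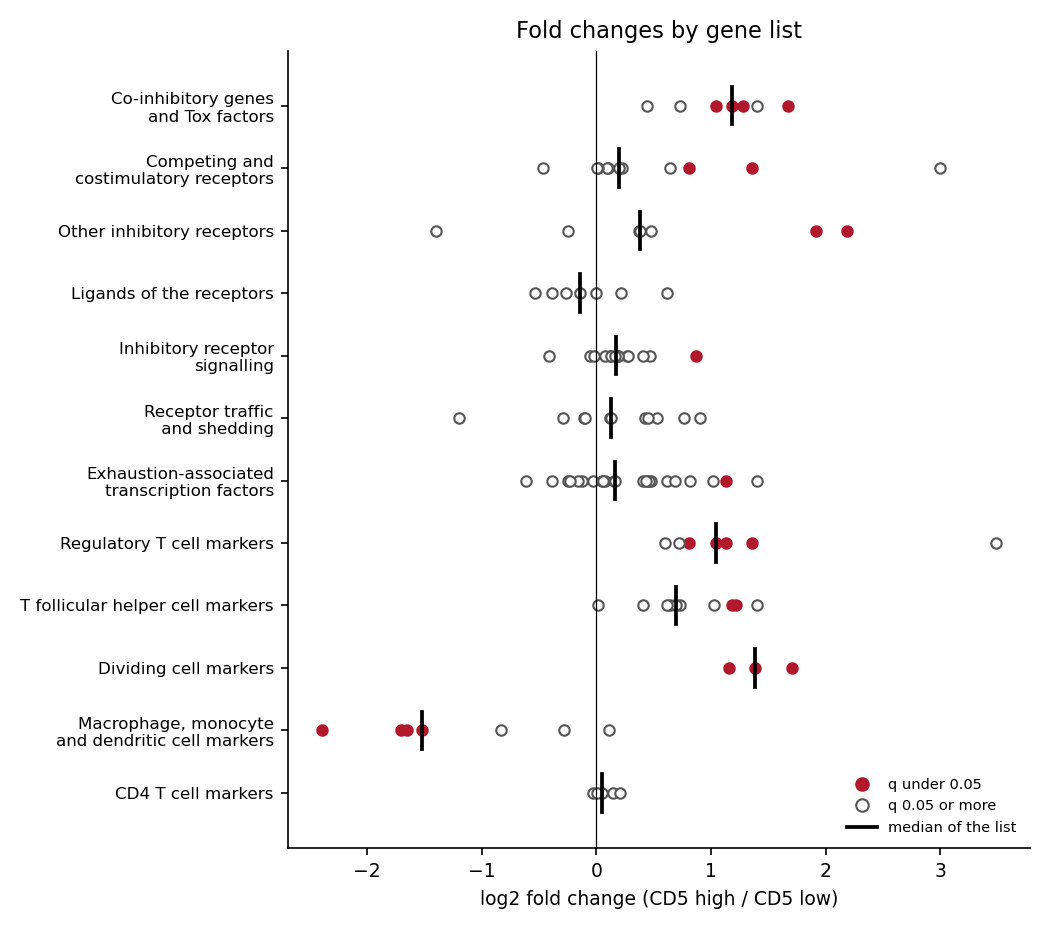
Log2 fold change, CD5 high over CD5 low, of every tested gene with a finite fold in each list, with filled points for q under 0.05 and a bar for the list's median; Tox and Tox2 also stand in the transcription factor list, Ctla4 in the regulatory list and Cd200, Pdcd1 and Tox2 in the follicular list. Fcer1g of the macrophage list is listed at 0 in CD5 high and is not drawn. The median is 1.18 for the co-inhibitory genes and Tox factors, 0.20 for competing and costimulatory receptors and -0.14 for ligands.

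Regulatory and follicular helper T cells also carry these receptors. All 7 tested of 11 listed regulatory T cell markers had a higher value in CD5 high, against 49.1% of all rows, and 4 passed the test as higher (Ctla4, Ikzf2, Tnfrsf4 and Tnfrsf18), against 0.538% of all rows. Their summed level was 789 FPKM in CD5 high and 393 FPKM in CD5 low, and without Ctla4 it was 517 FPKM in CD5 high and 261 FPKM in CD5 low. Ctla4 was chosen with its value known. Without it, all 6 other tested markers had a higher value in CD5 high and 3 passed. Foxp3, the factor that defines these cells, had 12.3 FPKM in CD5 high and 1.10 FPKM in CD5 low (q = 0.298, unadjusted p = 0.0106) in the authors' deposited table. The Ctla4 to Foxp3 ratio was 22.05 in CD5 high and 119.9 in CD5 low. Foxp3 reached the 6.82 FPKM that every tested gene had in a group only in CD5 high. The CD5 low ratio therefore rests on a Foxp3 value of 1.10 FPKM, whose read depth is unknown. The part of regulatory T cells in the values of Ctla4, Tigit and the other genes was not tested.

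The list of T follicular helper markers holds Pdcd1, Cd200 and Tox2. All 11 tested of its 12 symbols had a higher value in CD5 high, against 49.1% of all rows. Of these, 2 passed the test as higher, Cd200 and Folr4 (folate receptor 4), against 0.538% of all rows. Both counts include Pdcd1, Cd200 and Tox2, which were chosen with their values known. Without the genes described here, all 8 others had a higher value in CD5 high and 1, Folr4, passed. These 8 summed to 929 FPKM in CD5 high and 596 FPKM in CD5 low. The dividing cell markers Mcm6, Mki67 and Top2a, 3 tested of 5 listed, all passed as higher, against that same 0.538%. They summed to 73.6 FPKM in CD5 high and 30.9 FPKM in CD5 low. Mki67 had 10.5 FPKM in CD5 high and 3.22 FPKM in CD5 low, and Top2a had 10.8 and 4.13 FPKM. These 2 reached the 6.82 FPKM that every tested gene had in a group only in CD5 high. The part of either list in the co-inhibitory genes was not tested. None of the CD4 T cell markers passed the test or had an unadjusted p under 0.05, with 5 tested of 8 listed, a summed level of 3129.6 FPKM in CD5 high and 2954 FPKM in CD5 low and a median log2 fold change of 0.05, and the CD8 markers Cd8a and Cd8b1 had no row among those analysed here.

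Lists of markers of other cells were for the most part lower in CD5 high or went in either direction, and the 1 tested B cell gene was higher. Of 8 tested macrophage, monocyte and dendritic cell markers, of 13 listed, 5 were lower in CD5 high at q under 0.05, against 0.221% of all rows, MHC class II genes among them, which encode the ligand of LAG-3. Their summed level was 634 FPKM in CD5 high and 1234 FPKM in CD5 low, and Fcer1g was listed at 0 in CD5 high. The class II genes were H2-Aa, H2-Ab1 and H2-Eb1, and the others that passed were Cd74 and Fcer1g. Of the tested genes of this list that did not pass, Ctss was higher in CD5 high, at 144 FPKM against 133 FPKM in CD5 low (q = 0.904). Cst3 had 242 FPKM in CD5 high and 295 FPKM in CD5 low (q = 0.680), and Apoe had 6.65 FPKM in CD5 high and 11.9 FPKM in CD5 low (q = 0.662). Endocrine markers, 5 tested of 8, summed to 2794 FPKM in CD5 high and 321 FPKM in CD5 low, and went in either direction. The insulin gene Ins2 had 2395 FPKM in CD5 high and 26.7 FPKM in CD5 low (q = 0.193), and its paralog Ins1, the 1 endocrine gene past the threshold, had 368 FPKM in CD5 high and 4.003 FPKM in CD5 low (q = 0.0186) in the authors' deposited table. The somatostatin gene Sst had 6.86 FPKM in CD5 high and 263 FPKM in CD5 low (q = 0.0714), and the pancreatic polypeptide gene Ppy had 5.63 FPKM in CD5 high and 19.4 FPKM in CD5 low (q = 0.616). Exocrine markers, 9 tested of 10, summed to 1016 FPKM in CD5 high and 1221 FPKM in CD5 low, and the lipase gene Cel passed as lower. The B cell, natural killer and endothelial lists had 1 tested gene each, Cd79b at 14.0 FPKM in CD5 high and 11.0 FPKM in CD5 low, Tyrobp at 3.94 FPKM in CD5 high and 21.8 FPKM in CD5 low, and Pecam1 at 16.6 FPKM in CD5 high and 21.3 FPKM in CD5 low, none past q of 0.05. Fcer1g, Tyrobp, Apoe and Ppy reached the 6.82 FPKM that every tested gene had in a group only in CD5 low. Ins1 reached it only in CD5 high. The part of these other cells in the values of the genes described here was not tested.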

How the data were processed

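Sequencing libraries were made from lysed cells by reverse transcription, amplification and Nextera XT, per the labels' protocols. TopHat 1.0.0, Cufflinks and the build mm10 are named in the submitters' processing notes, with no Cufflinks version or gene annotation. The authors deposited 1 FPKM value per gene and group, a log2 fold change (CD5 high over CD5 low, no pseudocount), a p-value with its q-value and the score of their test, in the columns of a Cuffdiff gene test per the file headers. Libraries are not stated to come from separate animals, so these p-values may measure technical spread, and the depth of each library is unknown.

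Genes with the status OK were used, and a gene passed at a q-value under 0.05. Members and lists were chosen with earlier results of these data known. Named are the 9 genes, the changed genes and the 3 with the highest mean FPKM of each of the 6 lists of related genes, and the changed genes next to each member in fold; marker genes, Cd200r1, Tox4 and those so marked were chosen after their values were seen. No test was computed here. The smallest p-value, 5e-05, was shared by 33 genes, and every tested gene reached 6.82 FPKM in a group. Alternatives (pseudocount, quantile normalization, filters, thresholds) were computed with Python 3.11.15 and pandas 2.3.3; only the p-value adjustment and the quantile normalization were tested on simulated data. Gene models are from GENCODE M21 (GRCm38).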

Additional observations from a re-analysis of the deposited data

How the results depend on the processing

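The log2 fold changes of the 7 genes kept their direction and stayed within 1.5 times of the reported value with a pseudocount of 1 FPKM, after quantile normalization, and relative to the median of all rows, and their median ranged from 1.11 to 1.23 over these and with genes under a mean of 20 FPKM or Ctla4 left out. That the 4 genes had q under 0.10 follows from q under 0.05. They also passed with the authors' p-values adjusted anew over 3703 rows with a mean of 20 FPKM or more. The same held over the 7227 of 7252 rows left without marker genes of other cells. Both adjustments reuse the p-values known when the genes were chosen, so they are no independent evidence. At an unadjusted p under 0.05 all 7 were higher, against 5.58% of all rows, with Tox at 0.04995. At that p the counts in either direction were 2 for inhibitory receptor signalling, 4 for receptor traffic and 10 for the transcription factors, against 10.3% of all rows. Of the transcription factors 4 had q under 0.10 (1.28% of all rows). The 10 include Tox and Tox2, which were chosen with their values known. Without these, 7 of 21 transcription factors were higher and 1 was lower at that p. No paired analysis was possible because each group has 1 combined value, so the numbers 3 and 4 in the titles could not be used as a block, and leaving out a library was not run for the same reason. Since depth is unknown, what a missing row or a missed threshold owes to few reads cannot be given.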

Other observations

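Genes lying near the co-inhibitory genes and Tox factors were looked at after the values were seen. Within 100 kb of the 9 genes, Havcr2 and Cd160 included, 15 other genes were tested, with a median log2 fold change of -0.03. Of these, 7 had a higher value in CD5 high, against 49.1% of all rows. The authors' test was passed by 1 of the 15, against 0.758% of all rows in either direction. The gene that passed was Ptms, which encodes the nuclear protein parathymosin and ends 1.97 kb from the start of Lag3 on the same strand. In the authors' deposited table Ptms had 60.6 FPKM in CD5 high and 25.6 FPKM in CD5 low (log2 fold change 1.24, q = 0.0462), close to the log2 fold change of 1.28 of Lag3. Cd4, on the other side of Lag3 at 16.2 kb, had 243 FPKM in CD5 high and 248 FPKM in CD5 low (log2 fold change -0.03, q = 0.975).

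With 1 value per group, likeness of pattern between genes is likeness of fold only. Among the changed genes with a finite fold, ordered by fold, Tigit held place 9, between the proliferation marker Mki67 (log2 fold change 1.71) and the microtubule-binding protein gene Mapre2 (1.64). Lag3 held place 16, between the signalling inhibitor gene Spry1 (1.36) and its neighbour in the genome Ptms (1.24). Cd200 held place 22, between the membrane glycoprotein gene Gpm6b (1.19) and the replication gene Mcm6 (1.15), and Ctla4 held place 25, between Ikzf2 (1.13) and Tiam1 (0.996), an activator of the GTPase Rac. Nothing is said by this order of shared function or control.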
